A study of Mus musculus with 19 samples.

Results

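Mice were immunised with a single purified heart protein or with the whole organ, and the T cell receptors of the draining node were then counted. The comparison holds the 2 libraries of axillary nodes taken after injection of cardiac myosin and the 3 libraries of axillary nodes taken after injection of heart extract, chosen by their labels, which makes 5 of the 19 libraries of the series. All animals were BALB/c wild-type mice, all cells were sorted as CD4+ TCRbeta+, and every node library was made from the RNA of 500000 cells at day 7. The myosin was porcine, at 100 µg. The heart extract was a mouse heart homogenate, at 1 mg of protein. Both were emulsified in Titermax Gold and given under the skin. The labels name 200 or 600 µl of adjuvant for these animals without saying which animal received which volume. Axillary nodes of mice given 200 µl of adjuvant alone (4 libraries) served as the reference without antigen. Mediastinal nodes after sham surgery (4 libraries) or myocardial infarction (MI, 3 libraries) and T cells from infarcted hearts (3 libraries of 5000 cells) were used as outside references. The species of the antigen, its mass, its purity and possibly the adjuvant volume all change together between the 2 antigen groups, so they cannot be told apart. The labels do not say whether a library came from 1 animal, so each p-value measures the spread between these samples.

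Each CD4+ T cell carries a receptor whose beta chain is assembled from a TRBV, a TRBD and a TRBJ segment. The CDR3 loop spans the join, lies over the centre of the peptide held by an MHC class II molecule and differs from clone to clone. A T cell that recognises an injected antigen divides in the draining node, so an antigen response can appear as clones of raised abundance or as similar CDR3s that recur between animals. Cardiac myosin is the classical antigen of experimental autoimmune myocarditis in BALB/c mice, and heart extract contains myosin among many other proteins. Only TRB transcripts were amplified. The libraries therefore hold no genes that could mark contaminating cells, and a larger clone and more receptor RNA per cell cannot be told apart in these bulk counts.

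The leading CDR3s of the 5 libraries are shown first, because the highest read counts of each node belong to them. The tables leave off the cysteine that starts a CDR3 and the phenylalanine that ends it.
Myosin node 1, most abundant: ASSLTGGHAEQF
Myosin node 1, the second: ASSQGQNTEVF
Myosin node 1, the third: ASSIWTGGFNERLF
Myosin node 2, most abundant: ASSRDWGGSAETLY
Myosin node 2, the second: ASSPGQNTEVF
Myosin node 2, the third: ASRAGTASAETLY
Heart extract node 1, most abundant: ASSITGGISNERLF
Heart extract node 1, the second: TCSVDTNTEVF
Heart extract node 1, the third: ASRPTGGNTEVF
Heart extract node 2, most abundant: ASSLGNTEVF
Heart extract node 2, the second: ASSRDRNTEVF
Heart extract node 2, the third: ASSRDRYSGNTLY
Heart extract node 3, most abundant: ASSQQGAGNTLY
Heart extract node 3, the second: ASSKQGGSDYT
Heart extract node 3, the third: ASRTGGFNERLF
No CDR3 stands in the leading 3 of more than 1 library. Many end in NTEVF or NERLF, the ends that TRBJ1-1 and TRBJ1-4 encode.

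The libraries of the 2 groups were read to similar depth. Totals were 8658001 and 7534295 reads in the myosin nodes and 7846878, 8709182 and 7774198 reads in the heart extract nodes, against 7712663 to 8840487 reads in the adjuvant nodes. No count under 2 was listed, so a CDR3 given here as 0 is one that the table of that library does not list. Two-sided comparisons of 1 value per library rest on 10 possible assignments of 5 libraries to groups of 2 and 3, so the smallest p that the exact permutation test can give is 0.1. The tables carry no molecular identifiers, and PCR reads are not independent molecules. Confidence intervals on single-library shares therefore cover counting error only.

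TRBV usage differed little in size between the antigens. TRBV19, the most used segment, took 24.4 and 23.1% of reads in the myosin nodes and 23.3, 24.7 and 25.3% in the heart extract nodes. TRBV5 took 19.97 and 20.11% after myosin and 19.99, 19.77 and 17.84% after heart extract. TRBV14 took 12.5 and 12.4% after myosin and 14.1, 12.6 and 13.5% after heart extract. The TRBV19 and TRBV5 values of the antigens overlapped, while both myosin values of TRBV14 lay just below all 3 heart extract values, inside the adjuvant range of 11.5 to 14.0%. TRBV4 took 9.39 and 10.2% against 9.36, 9.46 and 9.06%. TRBV1 took 8.05 and 8.02% against 7.96, 8.25 and 8.43%, and TRBV2 took 4.72 and 5.14% against 5.26, 4.89 and 5.004%. All 3 overlapped between the antigens.

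None of the 22 TRBV segments passed the edgeR quasi-likelihood test at an adjusted p of 0.05 (percent called 0). The count at an unadjusted p under 0.05 was also 0, and so was the number of DESeq2 calls. The smallest p belonged to TRBV13-1, at 3.39 and 3.38% of reads after myosin and 3.05, 3.26 and 3.42% after heart extract, and its log2 fold change was 0.06 with an SE of 0.042 (adjusted p = 0.860). TRBV14 followed at -0.11 on the log2 scale (SE 0.075, 95% confidence interval -0.27 to 0.05, adjusted p = 0.860). TRBV5, TRBV13-2, TRBV4 and TRBV31 had log2 fold changes of 0.06, 0.06, 0.08 and 0.08, also at an adjusted p of 0.860. The test is informative about size for the common segments. Over the 11 TRBV segments with at least 1% of reads, all 95% confidence intervals lay between -0.27 and 0.23 on the log2 scale. Rare segments were bounded less tightly, and the interval of TRBV12-2, a superantigen-deleted segment, ran from -1.55 to 0.98.

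By edgeR, TRBJ usage showed a single segment with an unadjusted p under 0.05, and it did not pass after adjustment. TRBJ1-2 took 5.17% of reads in both myosin nodes and 4.71, 5.03 and 4.61% in the heart extract nodes, while the adjuvant nodes ranged from 4.77 to 4.998%. Both myosin values were above every heart extract and adjuvant value. The difference was 0.11 on the log2 scale (SE 0.0508, 95% confidence interval 0.01 to 0.21, adjusted p = 0.342). TRBJ2-4 went the other way, at 7.78 and 7.65% after myosin and 8.49, 7.80 and 8.37% after heart extract, with a log2 fold change of -0.09 and an adjusted p of 0.389. Its groups did not overlap either, though the margin was small. TRBJ1-3, TRBJ1-5, TRBJ1-1 and TRBJ2-7 had log2 fold changes of -0.04, 0.05, 0.04 and -0.03 at an adjusted p of 0.976. In all, edgeR called 0 of 11 TRBJ segments (percent called 0), and DESeq2 also called 0 with 1 segment at an unadjusted p under 0.05. That segment was TRBJ2-4 (DESeq2 adjusted p = 0.23), while DESeq2 put TRBJ1-2 at an adjusted p of 0.909, so the tools ranked different segments first.

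**Figure D1:**
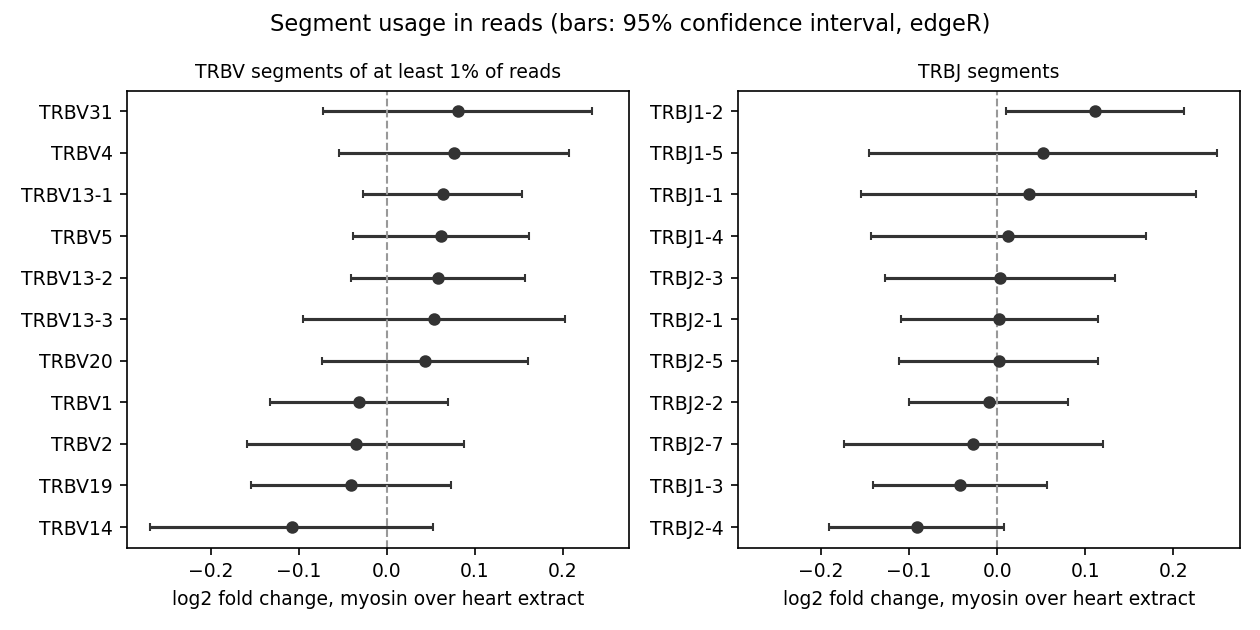
Log2 fold change of read share, myosin over heart extract, for TRBV segments with at least 1% of reads (left) and TRBJ segments (right), with 95% confidence intervals from edgeR. The 11 TRBV intervals all include 0, and TRBJ1-2 has the one TRBJ interval that does not, at 0.01 to 0.21 before adjustment.

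Combining the 2 segments gave the same picture. Of 188 TRBV-TRBJ pairs with at least 0.01% of node reads, 4 had an unadjusted p under 0.05 and edgeR called 0 (percent called 0). No pair was called by DESeq2, with 6 at an unadjusted p under 0.05. TRBV19 with TRBJ2-4 had the smallest p, at 1.78 and 1.64% of reads after myosin and 2.15, 1.83 and 2.35% after heart extract (log2 fold change -0.30, SE 0.112, adjusted p = 0.998). The adjuvant nodes held 1.54 to 1.85% of this pair, so 2 of the 3 heart extract nodes lay above them and both myosin nodes lay within their range. The next 3 pairs all used TRBJ1-2, joined to TRBV13-1, TRBV20 and TRBV1, with log2 fold changes of 0.22, 0.22 and 0.23. TRBV14 with TRBJ1-3 and TRBV16 with TRBJ2-5 had log2 fold changes of -0.27 and -0.50. All 6 pairs had an adjusted p of 0.998.

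Lists of segments with a shared origin were followed as groups. The TRBJ1 cluster is the upstream group of TRBJ segments, the TRBV13 family encodes the Vbeta8 chains, and the last list holds 5 segments whose T cells are deleted in BALB/c mice by endogenous mammary tumor virus superantigens (TRBV26, TRBV12-1, TRBV12-2, TRBV16 and TRBV15). The TRBJ1 cluster made up 45.2% ± 0.275 of reads after myosin (SD, n = 2) and 44.5% ± 2.26 after heart extract (SD, n = 3). The TRBV13 family made up 9.81% ± 0.0715 and 9.42% ± 0.404. The deleted segments made up 1.88% ± 0.0865 and 1.99% ± 0.277. No list separated the antigens beyond the spread between libraries, with exact permutation p = 0.8, 0.3 and 0.9 and an adjusted p of 0.9 for each. No member of the lists passed the edgeR test.

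Single CDR3s differed far more between libraries than segments did, and none could be assigned to an antigen by the main test. Of 121771 CDR3s tested, edgeR called 0 (percent called 0), with a smallest adjusted p of 0.412. At an unadjusted p under 0.05 were 5583 CDR3s, or 4.58%, 5223 higher after myosin and 360 higher after heart extract. Of the 5223, 3363 (64.4%) were listed in 1 of the 2 myosin libraries and 5187 (99.3%) in no heart extract library. Of the 360, 203 (56.4%) were listed in 1 of the 3 heart extract libraries and 359 (99.7%) in no myosin library. The 5583 fell to 814, 1155 and 761 without heart extract node 1, 2 and 3 in turn. DESeq2 called 9485 of the same 121771 CDR3s, 4333 higher after myosin and 5152 higher after heart extract. Of the DESeq2 calls, 3365 (77.7%) of those higher after myosin were listed in 1 of the 2 myosin libraries, and 4328 (84.0%) of those higher after heart extract were listed in 1 of the 3 heart extract libraries. In all libraries of their antigen were 968 and 66. In the opposite antigen, 4313 and 5143 were listed in no library. The same shares were not counted over all 121771 tested CDR3s, so the called CDR3s cannot be set against the rest. The count of calls at this level rests on the tool.

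The leading CDR3s ranged from those listed in a single library to those listed in every node. In myosin node 1, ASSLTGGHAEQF (TRBV14, TRBJ2-1) had 10992 reads, 0.127% of the library (Wilson 95% confidence interval 0.125 to 0.129%), and it was listed at 0 in myosin node 2 and in all 3 heart extract nodes. Elsewhere it had 449 reads in adjuvant node 2, 481 and 16 in MI nodes 3 and 2, and 2 in heart 3. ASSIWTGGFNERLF (TRBV19, TRBJ1-4) had 4063 reads in myosin node 1 and was listed in no other library of the series. In myosin node 2, the most abundant CDR3, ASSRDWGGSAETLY (mainly TRBV14, TRBJ2-3), had 5021 reads. It was listed at 0 in myosin node 1, with 376 and 292 reads in heart extract nodes 2 and 3. Adjuvant nodes 2 and 4 listed it with 490 and 89 reads, and all 7 mediastinal nodes with 4 to 347 reads. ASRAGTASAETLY (TRBV14, TRBJ2-3) had 3910 reads in myosin node 2 and was listed at 0 in the other 4 antigen libraries. It had 255 and 2 reads in adjuvant nodes 2 and 4.

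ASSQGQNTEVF and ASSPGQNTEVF, which differ by 1 residue, were widespread. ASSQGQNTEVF (mainly TRBV5, TRBJ1-1) had 4459 and 674 reads after myosin and 1595, 1078 and 2431 after heart extract. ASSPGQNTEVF had 2170 and 4207 reads after myosin and 1047, 1592 and 3061 after heart extract. Both were listed in all 16 node libraries with between 342 and 4459 reads, so these leading CDR3s of the myosin nodes are common to every node examined.

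The most abundant single CDR3 of the 5 libraries was in a heart extract node. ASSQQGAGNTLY (mainly TRBV14, TRBJ1-3) had 12397 reads in heart extract node 3, 0.159% of that library (Wilson 95% confidence interval 0.157 to 0.162%). It had 2007 reads in heart extract node 2, 0 in heart extract node 1, and 92 and 576 in the myosin nodes. In adjuvant nodes 2 and 4 it had 426 and 199 reads. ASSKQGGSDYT (TRBV14, TRBJ1-2) had 10980 reads in heart extract node 3 and was listed at 0 in the other antigen and all adjuvant libraries, with 171 and 93 reads in MI nodes 1 and 3. In heart extract node 1, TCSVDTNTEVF (TRBV1, TRBJ1-1) had 5800 reads and was listed nowhere else. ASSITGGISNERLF (TRBV19, TRBJ1-4) had 6115 reads there, none in another antigen library, and 214 in adjuvant node 2. In heart extract node 2, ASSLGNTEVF had 9617 reads, with 249 in heart extract node 1, 0 in node 3, and 289 and 0 in the myosin nodes. Adjuvant nodes 2, 3 and 4 held 1136, 2 and 1057 reads of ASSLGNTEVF. Of the leading heart extract CDR3s, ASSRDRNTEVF, which was spread over 13 TRBV-TRBJ combinations, was the one listed in all 3 heart extract libraries, with 404, 7964 and 1300 reads, and it was also in every other node library.

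The 10 CDR3s with the smallest edgeR p were all listed after myosin and at 0 in the 3 heart extract libraries, each at an edgeR adjusted p of 0.412. DESeq2 gave no adjusted p for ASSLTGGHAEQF, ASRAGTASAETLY and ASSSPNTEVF. For the rest of them its adjusted p ran from 7.07e-09 (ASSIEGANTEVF) to 0.00397 (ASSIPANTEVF), so the tools disagreed on these CDR3s. All 10 were also listed in adjuvant node 2, with 255 to 2538 reads. A tested CDR3 needed a read in at least 3 node libraries. Any tested CDR3 at 0 in all 3 heart extract libraries therefore had to be listed outside the antigen nodes. That these 10 occurred there follows from the filter, and CDR3s listed in myosin nodes alone were not tested. Of the 10, 7 used TRBV19, a share that was not counted over all tested CDR3s. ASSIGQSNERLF (TRBV19, TRBJ1-4) had 1265 and 1322 reads in the myosin nodes, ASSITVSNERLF (TRBV19, TRBJ1-4) had 1515 and 924, and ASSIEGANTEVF (TRBV19, TRBJ1-1) had 1299 and 1298. Against a floor of 3 reads in each heart extract library, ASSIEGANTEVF was at least 435-fold higher after myosin. It also had 304 reads in adjuvant node 2, and 2 to 460 reads in 6 of the 7 mediastinal node libraries. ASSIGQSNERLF had 2538 reads in adjuvant node 2, more than in either myosin node.

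Listing alone, without a test, gave a fuller view of which CDR3s recurred with an antigen. The 5 libraries listed 306484 CDR3s, and 264757 of them, 86.4%, were in 1 antigen library only. Both myosin nodes and no heart extract node listed 5972 CDR3s (1.95% of all listed), which carried 7.15 and 7.38% of the myosin reads. All 3 heart extract nodes and no myosin node listed 180 (0.0587%), which carried 0.473, 0.224 and 0.716% of the heart extract reads. The first class needs 2 listings and the second 3, so their sizes cannot be set against each other. All 5 libraries listed 1212 CDR3s, which carried 5.17 to 8.31% of the reads of each.

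CDR3s that recurred with an antigen were frequent outside that antigen. Of the 5972 myosin-side CDR3s, 3196 (53.5%) were listed in an adjuvant node, 4633 in an MI node, 4319 in a sham node and 101 in an infarcted heart, which left 656 listed in no other node library. Of the 180 heart extract-side CDR3s, 120 (66.7%) were listed in an adjuvant node, 149 in an MI node, 137 in a sham node and 4 in a heart, which left 8. Of the 1212 CDR3s common to the antigens, 1187 (97.9%) were listed in an adjuvant node, 433 in all 4. CDR3s of 1 antigen library were listed in an adjuvant node in 12.8% of cases. Mean length was 12.3 residues for CDR3s of 1 library, 11.8 and 11.7 in the antigen classes and 11.6 in those of all 5.

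The most abundant recurrent CDR3s of each class are shown so that their reads can be followed in the other libraries. They are the CDR3s with the highest lowest-library share in their class, and many were also listed in nodes without that antigen.
Both myosin, no heart extract: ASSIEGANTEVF
Both myosin, no heart extract: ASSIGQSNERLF
Both myosin, no heart extract: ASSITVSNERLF
Both myosin, no heart extract: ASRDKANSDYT
Both myosin, no heart extract: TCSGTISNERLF
All 3 heart extract, no myosin: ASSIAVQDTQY
All 3 heart extract, no myosin: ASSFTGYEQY
All 3 heart extract, no myosin: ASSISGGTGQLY
All 3 heart extract, no myosin: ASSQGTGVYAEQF
All 3 heart extract, no myosin: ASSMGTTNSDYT
All 5, no adjuvant: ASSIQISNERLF
All 5, no adjuvant: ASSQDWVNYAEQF
All 5, no adjuvant: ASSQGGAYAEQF
All 5, no adjuvant: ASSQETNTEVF
All 5, no adjuvant: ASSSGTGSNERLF
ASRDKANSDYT (TRBV19, TRBJ1-2) had 857 and 778 reads in the myosin nodes and, in the rest of the series, 22 reads in sham node 3. Among the 5 CDR3s shown for its class, it is the one least seen elsewhere. On the other side, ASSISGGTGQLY (TRBV19, TRBJ2-2) had 543, 511 and 646 reads in the heart extract nodes and otherwise 2 and 67 reads in MI nodes 1 and 2. Against the floor of 3 reads per myosin library it was at least 189-fold higher after heart extract, with an adjusted p of 0.412. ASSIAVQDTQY (TRBV19, TRBJ2-5) had 1745, 776 and 599 reads, with 159 in adjuvant node 4 and 16 in MI node 1.

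A smaller class answered a different question, namely which CDR3s both antigens shared while the adjuvant nodes lacked them. It held 25 CDR3s, and they carried 0.0427 to 0.0958% of the reads of each antigen library. Of the 25, 24 were listed in an MI node, 24 in a sham node and 1 in a heart. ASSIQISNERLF (TRBV19, TRBJ1-4) had 733 and 1264 reads after myosin and 682, 374 and 536 after heart extract, and 1584 reads in sham node 1. None of the 25 was restricted to the antigen-immunised mice.

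The myosin nodes held more distinct CDR3s than the heart extract nodes. At 7534295 reads drawn from each library, the myosin nodes listed 97340 and 91621 distinct CDR3s, and the heart extract nodes 52679, 87213 and 38432. The groups did not overlap, and the difference of 35039 had an exact permutation p = 0.2. Within heart extract the libraries spread widely, and node 2 lay close to the myosin values. The adjuvant nodes, with 53860, 88513, 45148 and 92865, covered most of the span of both antigens.

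Evenness placed the antigens in the same order. The 100 most abundant CDR3s took 2.58 and 2.54% of reads after myosin and 4.12, 3.25 and 5.60% after heart extract, against 2.92 to 5.51% in the adjuvant nodes. Both myosin values were below every other axillary node. Normalised Shannon entropy, which is 1 when all CDR3s are equally abundant, was 0.923 and 0.926 after myosin and 0.896, 0.916 and 0.877 after heart extract. The adjuvant nodes ranged from 0.885 to 0.923, which reaches myosin node 1. The exact permutation p was 0.2 for each measure and 0.2 after adjustment over the 3. CDR3s above 0.01% of reads numbered 669 and 672 in the myosin nodes and 2046, 879 and 2746 in the heart extract nodes. How many T cells gave usable RNA in each library was not measured, and its part in the number of CDR3s was not tested.

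**Figure D2:**
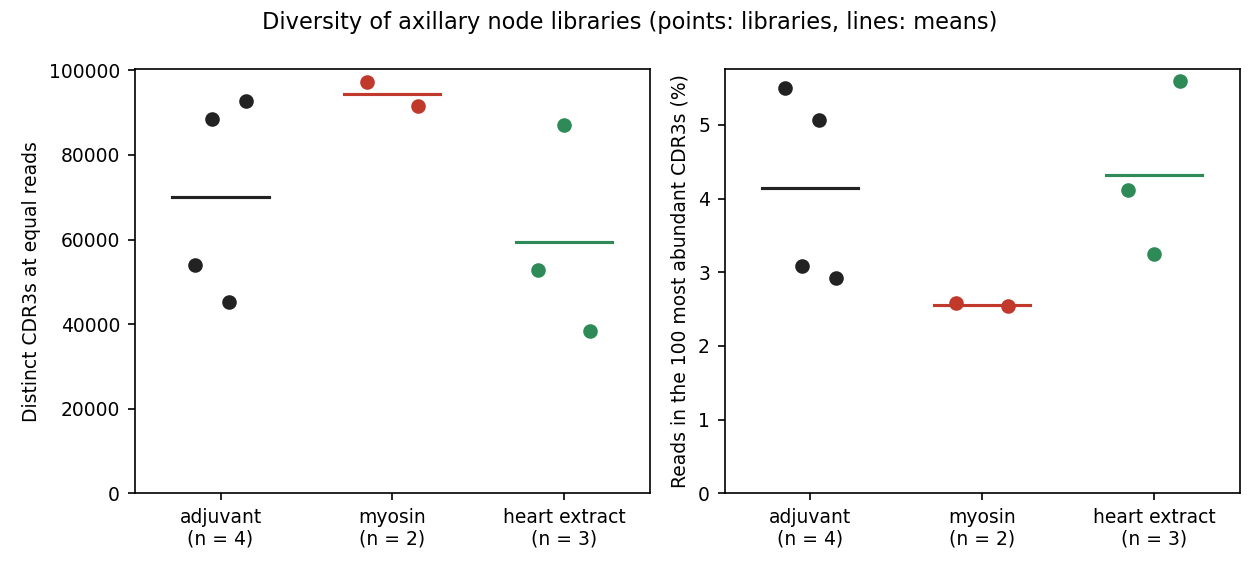
Distinct CDR3s at 7534295 reads per library (left) and percentage of reads held by the 100 leading CDR3s (right) in axillary nodes. Points are libraries and lines are group means. The 2 myosin libraries lie together, while heart extract and adjuvant libraries each spread over a wide range, from 38432 to 87213 and from 45148 to 92865 distinct CDR3s.

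The leading clones of the myosin nodes were also the more widely shared. Of the 100 most abundant CDR3s, 83 and 85 of the myosin nodes were listed in an adjuvant node, against 58, 67 and 48 of the heart extract nodes. In the other libraries of the same antigen, 74 and 72 were listed for myosin and 46, 50 and 37 for heart extract, although heart extract has 2 other libraries to be found in and myosin only 1. In the libraries of the opposite antigen, 76 and 79 were listed for myosin and 54, 66 and 45 for heart extract. For each library that count was above the one with its own antigen, though the myosin CDR3s had 3 opposite libraries to be found in. In no other node library were 7 and 9 of the myosin clones and 19, 20 and 30 of the heart extract clones. TRBV5 supplied 12 and 15 of the 100 in the myosin nodes and 4, 10 and 0 in the heart extract nodes. TRBV14 supplied 40 and 48 against 59, 46 and 60, and TRBV19 supplied 30 and 24 against 29, 34 and 36. The TRBV5 counts did not overlap, and neither did those of TRBJ1-1, at 38 and 36 against 35, 31 and 19. Over all reads both segments overlapped. TRBV5 took 19.97 and 20.11% against 19.99, 19.77 and 17.84%, and TRBJ1-1 took 14.97 and 15.87% against 15.35, 15.79 and 13.99%. The leading 100 of the adjuvant nodes were not counted by segment. The heart extract library with the fewest CDR3s, node 3, was lowest for sharing and for TRBV5 and highest for TRBV14.

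Libraries of the same antigen did not resemble each other more than libraries of different antigens. The Morisita-Horn index, which is 0 for repertoires without common CDR3s and 1 for identical ones, was 0.240 between the myosin nodes. It was 0.133, 0.0724 and 0.0946 among the heart extract nodes and 0.0989 to 0.213 between a myosin and a heart extract node. The mean within an antigen was 0.135 and the mean between antigens 0.154, a difference of -0.0190 (one-sided exact permutation p = 0.9). The difference was 0.00930, 0.0311 and 0.00730 without heart extract node 1, 2 and 3 in turn, so the sign turned whichever of them was left out.

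The similarity of the myosin nodes to each other was nearly matched by their similarity to an adjuvant node. Myosin nodes 1 and 2 had indices of 0.225 and 0.237 with adjuvant node 4, next to 0.240 with each other. By the Jaccard index, which counts CDR3s without regard to abundance, the myosin pair was at 0.0882 and myosin node 2 with adjuvant node 4 at 0.0893. The myosin pair had 15312 CDR3s in common, 15.7% of those in node 1 and 16.7% of those in node 2. Both myosin nodes reached higher values still with sham node 3, which listed 211482 CDR3s, at 0.301 and 0.312. With MI node 2 they reached 0.302 and 0.313, and with MI node 1 0.273 and 0.286.

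**Figure D3:**
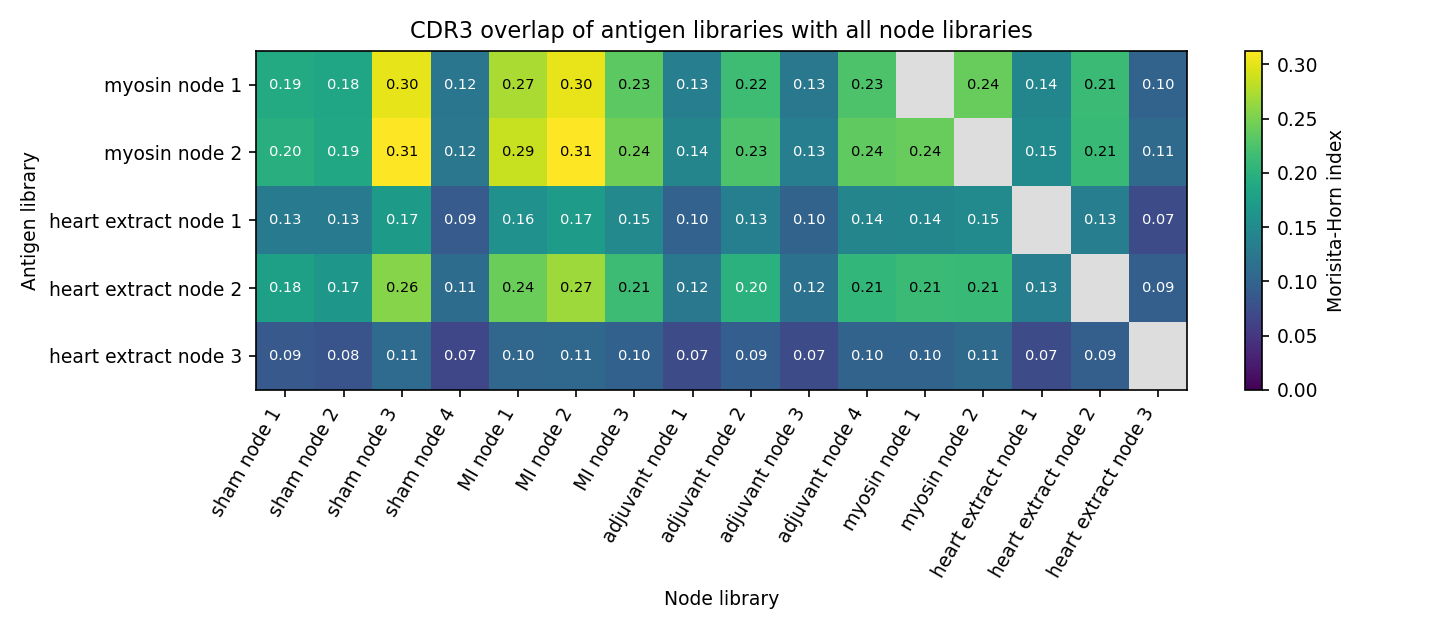
Morisita-Horn index of each antigen library (rows) with each of the 16 node libraries (columns), at equal reads. Grey cells are a library with itself. Colour changes by library more than by antigen: heart extract node 3 is low in its whole row and column, and heart extract node 2 with the myosin nodes, 0.213 and 0.211, exceeds both of its values with its own antigen.

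Near-identical CDR3s did not bring the antigen groups together either. Among the 1000 most abundant CDR3s of a library, 47.4% in the myosin pair had an identical partner or one with 1 substitution in the other. The heart extract pairs had 35.5, 26.5 and 31.3%. Myosin and heart extract nodes matched at 32.9 to 47.8%. The mean within an antigen was 35.2% and between antigens 39.7%, a difference of -4.53 percentage points (one-sided exact permutation p = 1).

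Both myosin nodes had a higher index than all 3 heart extract nodes with every sham, MI and adjuvant node library. The mean index with the 4 adjuvant nodes was 0.175 and 0.185 after myosin and 0.119, 0.163 and 0.0841 after heart extract. With the 3 MI nodes it was 0.270 and 0.281 against 0.159, 0.241 and 0.102. Neither measure overlapped between the groups, and the exact permutation p was 0.2 for both (adjusted p = 0.267 over 4 measures). The order of the 5 libraries in each measure was that of their entropy. Both myosin nodes stayed above all 3 heart extract nodes with each adjuvant node when libraries were cut to their 38432 most abundant CDR3s. With adjuvant node 4 the index was then 0.220 and 0.232 after myosin and 0.145, 0.204 and 0.103 after heart extract. Uncut it was 0.225 and 0.237 against 0.142, 0.207 and 0.0989. That cut was chosen after seeing the data and does not equalise evenness. The part of evenness in these overlaps was not tested.

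The repertoire of infarcted hearts gave the same order of the antigens. Of the reads of a heart library, 27.0 and 26.6% on average over the 3 hearts had a CDR3 listed in a myosin node, and 13.6, 23.3 and 10.1% had one listed in a heart extract node (exact permutation p = 0.2, adjusted p = 0.267). The groups did not overlap. The adjuvant nodes averaged 18.8% ± 7.76 (SD, n = 4). When each library was cut to its 38432 most abundant CDR3s, the myosin nodes listed 18.2 and 17.9%, the heart extract nodes 12.7, 17.1 and 10.1%, and the adjuvant nodes 11.7, 18.3, 10.6 and 19.5%. The difference between the antigens was then 4.75 percentage points in place of 11.1.

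**Figure D4:**
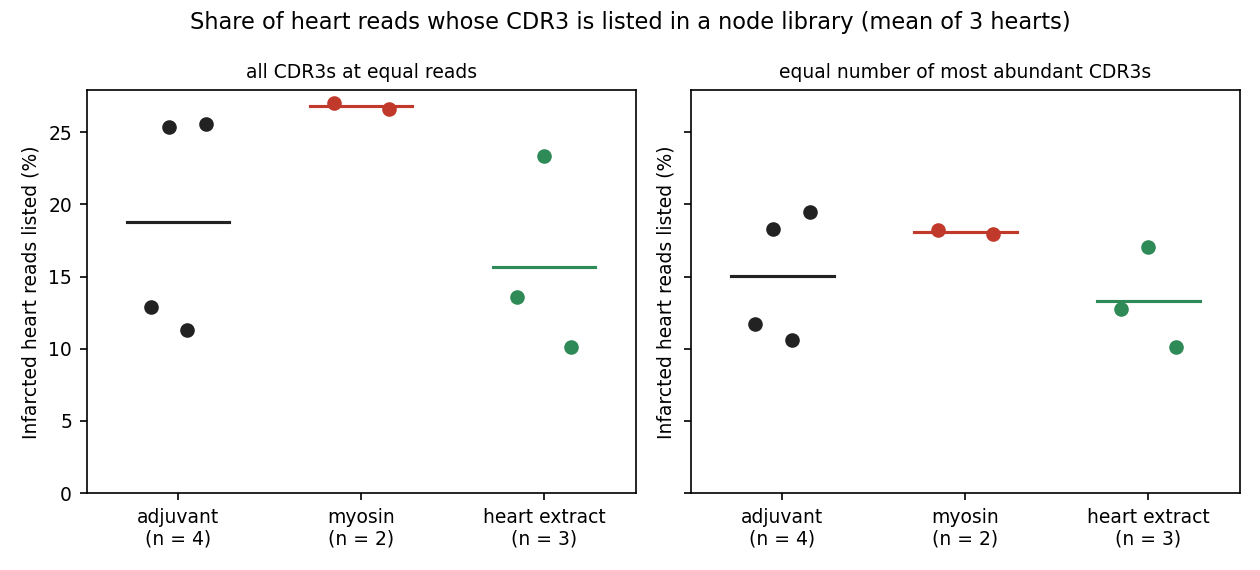
Share of infarcted heart reads whose CDR3 was listed in an axillary node library, as the mean of 3 hearts, with all CDR3s at equal reads (left) and with the 38432 most abundant CDR3s of each library (right). Points are libraries and lines are means. At an equal number of CDR3s the myosin values of 18.2 and 17.9% lie below adjuvant nodes 2 and 4, at 18.3 and 19.5%. They lie above adjuvant nodes 1 and 3, at 11.7 and 10.6%.

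Reads in CDR3s that no adjuvant node listed made up 57.9 and 56.8% of the myosin libraries and 56.9, 57.8 and 58.4% of the heart extract libraries. The difference of -0.337 percentage points was smaller than the spread between libraries (exact permutation p = 0.7). By this measure of what an antigen adds to adjuvant, the antigens did not separate. The sham nodes, from mice given no adjuvant, held 57.01 to 58.65%.

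Among the CDR3 features, net charge separated the groups and length and hydrophobicity did not. Net charge was counted over the centre of the CDR3, with the first and last 3 listed residues left out, as lysines and arginines minus aspartates and glutamates. Weighted by reads it was -0.394 and -0.382 per CDR3 after myosin and -0.373, -0.351 and -0.369 after heart extract. Both myosin nodes were more negative than all 3 heart extract nodes, at the smallest p that the exact permutation test can give (0.1, adjusted p = 0.3 over 3 features). The adjuvant nodes, at -0.393, -0.377, -0.382 and -0.402, ranged with the myosin nodes, and the sham and MI nodes, at -0.372 to -0.357, ranged with heart extract.

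The charge difference came with the acidic residues. The centre held 0.820 and 0.810 acidic residues per CDR3 after myosin and 0.793, 0.795 and 0.799 after heart extract, while basic residues overlapped at 0.427 and 0.429 against 0.421, 0.444 and 0.430. The centre so defined keeps an acidic residue that TRBJ1-4, TRBJ2-3 and TRBJ2-5 encode. With the last 5 residues left out, the charge was -0.0297 and -0.0268 after myosin and -0.0215, 0.000617 and -0.0100 after heart extract. The groups still did not overlap, with a difference of -0.0180 and an exact permutation p = 0.2, in an alternative chosen after seeing the data.

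**Figure D5:**
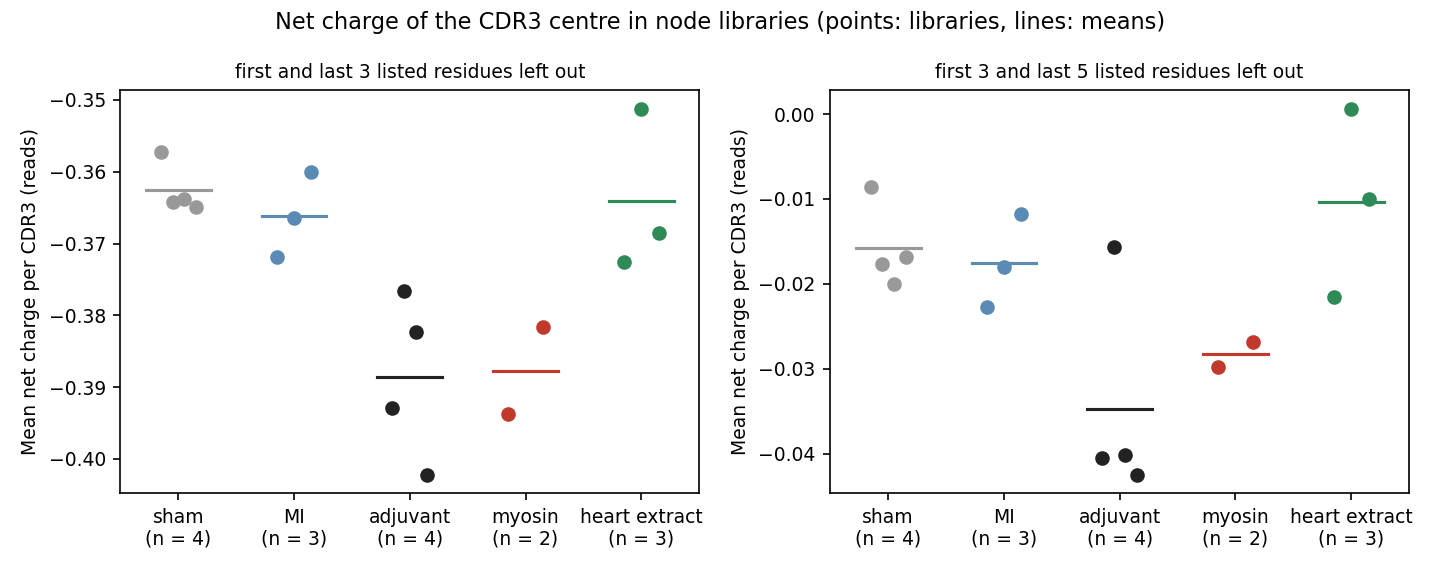
Mean net charge of the CDR3 centre, weighted by reads, in the 16 node libraries, with the last 3 (left) or the last 5 (right) listed residues left out. Points are libraries and lines are group means, and the axes do not start at 0. On both scales the 2 myosin libraries lie below the 3 heart extract libraries, and at least 3 of the 4 adjuvant libraries lie below them too.

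Mean CDR3 length was 12.1 residues after both antigens, with a difference of -0.00551 (exact permutation p = 0.9). In every axillary library the commonest length was 12 residues, at 30.1 and 30.2% of reads after myosin and 30.7, 30.8 and 30.7% after heart extract. A hydrophobic pair at CDR3 positions 6 and 7, a feature linked to self-reactive receptors, was carried by 0.641 and 0.666% of reads after myosin and 0.696, 0.579 and 0.681% after heart extract. Those values overlapped, with a difference of 0.00123 percentage points (exact permutation p = 1). Positions were counted with the omitted cysteine as 1, and the residues were C, F, I, L, M, V and W.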

How the data were processed

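T cell receptor beta transcripts of sorted CD4+ T cells were amplified by a commercial provider with amplicon-rescued multiplex PCR and read on an Illumina HiSeq, per the labels' protocols. The authors deposited, for each library, whole-number read counts per combination of CDR3, TRBV and TRBJ, without normalisation. For the aligner, the error correction and the segment reference, the labels and files used here give no name or version. No genome build is named either, so no coordinates are printed. Counts were summed per segment, segment pair and CDR3.

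Segments and CDR3s were tested with edgeR 4.0.16 in R 4.3.3 (glmQLFit, robust, legacy; glmQLFTest; library total as offset) over all 16 node libraries in 5 groups, with Benjamini-Hochberg adjustment over all features at 0.05. Pairs needed a mean of 0.01% of reads, and CDR3s a read in at least 3 of 16 libraries and 20 reads in all. DESeq2 1.42.0 was an alternative. The methods were tested on simulated data. Values of 1 per library used reads drawn without replacement to 7534295 and exact permutation tests over 2 against 3 libraries, adjusted within each family of measures. Lower bounds of fold changes used a floor of 3 reads per library. Other alternatives were trimmed mean (TMM) factors, axillary libraries only, default edgeR settings, other filters, entries under 10 reads left out, distinct entries, a block for the replicate number, and each library left out.

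Named features were those past the threshold, otherwise the 6 segments or pairs and the 10 CDR3s with the smallest p, the 6 commonest TRBV segments, the 3 most abundant CDR3s of each library, and 5 CDR3s from each listing class. CDR3s of 15 or more residues were counted but not spelled out. The comparison, its lists and its rules were chosen with earlier results of these data known.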

Additional observations from a re-analysis of the deposited data

How the results depend on the processing

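edgeR called 0 TRBV segments, TRBJ segments, TRBV-TRBJ pairs and CDR3s under every alternative setting tried, each library left out included. The smallest adjusted p among these was 0.0606, for TRBJ segments over the 9 axillary libraries alone. DESeq2 called 9485 CDR3s and no segment or pair, and the cause of its difference from edgeR was not tested beyond the listing patterns given with it. The deviations of same-numbered libraries had r = 0.00929 and -0.0725 over 188 segment pairs. With 2 myosin libraries the deviations from their mean are mirror images, so r cannot decide whether same-numbered libraries were paired. With the replicate number as a block edgeR called 0 features at each level. Leaving out entries under 10 reads turned TRBV13-1 to -0.017, TRBV13-2 to -0.0094 and the TRBV13 family to -0.0921 percentage points, and left 108 CDR3s in all 3 heart extract and no myosin nodes. Counting distinct entries in place of reads turned TRBV14 to 0.046, TRBV5 to -0.20, TRBV4 to -0.15, TRBJ1-1 to -0.028, TRBV1 with TRBJ1-2 to -0.042 and TRBV14 with TRBJ1-3 to 0.18. The cause of these turns was not tested.

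Without 1 library at a time, several small values changed sign. The log2 fold changes ranged from -0.075 to 0.0013 for TRBJ1-3, from -0.022 to 0.12 for TRBJ1-5, from -0.014 to 0.077 for TRBJ1-1 and from -0.068 to 0.012 for TRBJ2-7. The differences ranged from -0.0304 to 0.0193 residues for mean CDR3 length, and in percentage points from -0.0353 to 0.0233 for the hydrophobic pair, from -0.0587 to 2.02 for the TRBJ1 cluster, from -0.220 to 0.0415 for the superantigen-deleted segments and from -0.893 to 0.220 for reads outside the adjuvant nodes. The overlap within minus between antigens ranged from -0.0562 to 0.0311, and the near-neighbour share from -9.20 to 1.09 percentage points. Of 498 alternative values for 49 results, 461 were not reversed and did not cross the threshold, a missing adjusted p counting as not passing. They include log2 fold changes of 0 for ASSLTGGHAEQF without myosin node 1, and for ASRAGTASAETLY and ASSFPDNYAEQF without myosin node 2. The 2 myosin libraries set the precision of every comparison here, and no exact test over 2 against 3 libraries can reach 0.05.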
